A study of Mus musculus with 18 samples.

Results

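The 7 genes Khdc1a, Adgrf1, Anxa8, Myl7, Aldh1a3, Ly6m and Dhrs9 were described in mouse colon after dextran sulfate sodium (DSS) colitis. They were chosen by their values in these libraries, as genes higher in DSS-treated groups than in Control, and all 7 of 7 were found by NCBI gene identifier among 18349 genes. Levels against Control are therefore a description, and tests were made only among the DSS-treated groups. RNA from the whole colon of male C57BL/6 mice, all labelled wild type in genotype, was sequenced on a DNBSEQ instrument. In the DSS group (n = 3), mice drank 2.5% DSS for 7 days and then received PBS by gavage for 5 weeks. In the WT (n = 4), KO (n = 4) and COM (n = 4) groups the same DSS course was followed by 5 weeks of gavage with Lactobacillus plantarum ZJ316, ZJ316-KO or ZJ316-COM, and no label explains the suffixes KO and COM. Control mice (n = 3) were fed normally, with no DSS and no gavage listed for them. DSS and gavage can therefore not be told apart in comparisons with Control. All DSS-treated mice were taken at 1 time, so how long the genes had been high was not measured. The labels tie no library to an animal, so p-values measure the spread between these samples, which may be technical.

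DSS is a sulfated polysaccharide that damages the colon epithelium when drunk, and the epithelium is then rebuilt by crypt cells. During repair, wound-associated epithelial cells and immune and stromal cells express genes that the resting colon holds low. Retinoic acid, made from retinol through retinaldehyde, is 1 of the signals that act on epithelial and immune cells of the gut. Aldh1a3 encodes an enzyme that makes retinoic acid from retinaldehyde, and Dhrs9 encodes a short-chain dehydrogenase that can oxidise retinol and hydroxysteroids. Adgrf1 encodes an adhesion G protein-coupled receptor (GPR110), for which synaptamide is a ligand in neurons. Anxa8 encodes an annexin, a protein that binds membrane phospholipids when calcium is present. Myl7 encodes the regulatory light chain of atrial myosin. Ly6m encodes a member of the Ly6 family, whose proteins are mostly small and anchored at the cell surface. Khdc1a encodes a KH domain protein of a family known from mouse oocytes and early embryos.

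On assembly GRCm38.p6, the genes lay on 7 chromosomes. Khdc1a is at chr1:21349677-21352199, Dhrs9 at chr2:69380462-69403086, Aldh1a3 at chr7:66390892-66427477 and Myl7 at chr11:5896637-5898782. Anxa8 is at chr14:34085979-34100571, Ly6m at chr15:74878336-74881704 and Adgrf1 at chr17:43270283-43325876. Of the 75-base stretches of the Khdc1a transcript, 32.1% also occur in Khdc1b, Khdc1c or Gm2709, so its reads could be shared, and Khdc1b and Khdc1c themselves were listed at no more than 0.24 and 0.25 FPKM. Anxa8 overlaps A630023A22Rik on the other strand, which was listed at up to 0.86 FPKM, and whether counting used strand is not given in the sources used here. The other 5 genes overlap no other gene, and 4 of these share no such stretch with another gene (1.4% for Ly6m).

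RefSeq promoters of GRCm38.p6, 250 bases before to 50 after the start, matched 4 of the 7 genes. Dhrs9 and Myl7 are shown because both stood at or near their highest level in the same KO library. Capitals mark matches, on either strand, to the TATA box letters TATAAA, the nuclear receptor letters AGGTCA or the AP-1 letters TGANTCA in Dhrs9 and to the TEAD letters GGAATG in Myl7. In Dhrs9 the capitals TTTATAAA hold an overlapping match on each strand.
Dhrs9 promoter, chr2:69380212-69380511, plus strand: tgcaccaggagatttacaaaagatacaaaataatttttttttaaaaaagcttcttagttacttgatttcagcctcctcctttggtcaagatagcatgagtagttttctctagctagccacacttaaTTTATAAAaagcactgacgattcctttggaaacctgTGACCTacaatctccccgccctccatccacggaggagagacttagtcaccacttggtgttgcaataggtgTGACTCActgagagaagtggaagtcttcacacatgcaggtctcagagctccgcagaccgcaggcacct
Myl7 promoter, chr11:5898733-5899032, minus strand: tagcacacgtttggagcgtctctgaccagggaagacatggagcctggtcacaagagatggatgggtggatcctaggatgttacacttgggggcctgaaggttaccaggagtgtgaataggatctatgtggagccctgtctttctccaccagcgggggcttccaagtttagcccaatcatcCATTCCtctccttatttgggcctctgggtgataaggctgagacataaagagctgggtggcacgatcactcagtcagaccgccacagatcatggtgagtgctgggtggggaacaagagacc
Among 32851 promoters of this length, TATAAA was found in 13.6%, AGGTCA in 16.3%, TGANTCA in 7.81% and GGAATG in 14.7%. GGGANTTTC (NF-kB), in 1.11% of promoters, and CTTTGA (TCF), in 16%, were in none of the 4 windows. The Anxa8 and Adgrf1 windows held none of the 6 motifs. A match describes letters and is no evidence of binding.

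Some libraries stood apart in marker genes. Distal Hox genes, which mark the distal colon, averaged 1.93 on the log2 scale in KO 2, 1.39 in Control 3 and 2.13 in DSS 3. They averaged 2.56 or more in the others. Hoxb13 was at 79.33 FPKM in KO 2, 0.76 FPKM in Control 3 and 199.13 FPKM in DSS 3. Hoxd13 was at 1.71, 0 and 6.67 FPKM in these. Only KO 2 and Control 3 were taken as the low-Hox libraries. Squamous epithelium genes averaged 1.93 to 2.94 in DSS 2, WT 2, WT 4, KO 3 and COM 3 and at most 1.29 elsewhere. Acinar gland genes averaged 7.44 to 9.71 in DSS 1, DSS 3 and KO 3 and at most 1.43 elsewhere. Epcam, an epithelial marker, was between 754.24 and 924.77 FPKM in all 18 libraries. FPKM totals were 517933 to 558590 a library. Low values rise in steps of 1 read, and these steps differed between libraries by a factor of 0.974 to 1.01. Only values close to the smallest of each gene entered this comparison, so larger differences in relative depth could go unseen. Absolute read depth is unknown.

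In all 7 genes every DSS-treated library lay above every Control library, a property shared by 4.2% of the 13263 genes tested. The choice of genes used this contrast, so nothing is read from it. The gap was widest for Khdc1a, whose lowest treated library was 5.44 times its highest Control library. It was 2.89 times for Adgrf1, 1.44 for Aldh1a3, 1.31 for Dhrs9, 1.29 for Anxa8, 1.2 for Myl7 and 1.15 for Ly6m. In bulk tissue a change in the number of cells and in RNA per cell cannot be told apart.

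**Figure D1:**
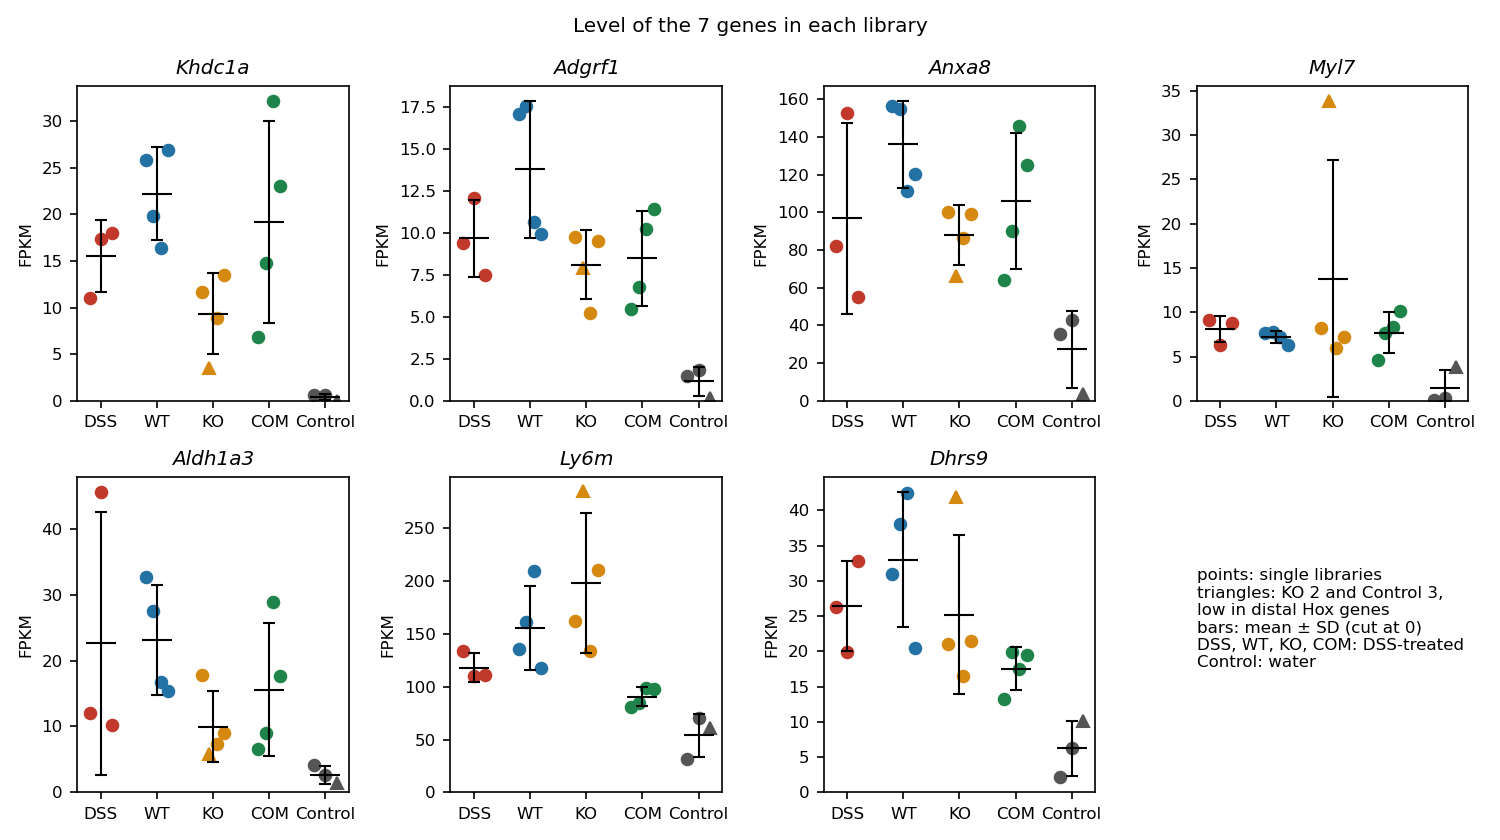
FPKM of the 7 genes in each of 18 libraries by group, with mean ± SD; triangles mark KO 2 and Control 3. Every DSS-treated library lies above every Control library, and Myl7 in KO 2 reaches 33.82 FPKM.

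Aldh1a3, which makes retinoic acid, had 12.09, 45.54 and 10.28 FPKM in DSS colons, against 4.1, 2.63 and 1.39 FPKM in Control colons. It had 32.69, 27.46, 16.73 and 15.4 FPKM in WT colons, 17.76, 5.89, 7.3 and 8.97 in KO colons, and 6.64, 9.08, 28.92 and 17.65 in COM colons. DSS 2 was the highest of all libraries and KO 2 the lowest of the treated ones. Over all 15 treated libraries the mean was 6.46 times that of Control, or 5.2 times without Control 3. Aldh1a3 had a median of 27.5 FPKM in the 5 squamous-rich libraries and 11.2 FPKM in the other 10 treated ones. The part of squamous tissue in this was not tested. Krt5, a squamous keratin, was at 88.14 FPKM in DSS 2, where Aldh1a3 was at 45.54 FPKM. It was at 0.03 FPKM in WT 1, where Aldh1a3 was at 32.69 FPKM.

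Dhrs9, which acts on retinol, had 26.35, 19.94 and 32.77 FPKM in DSS colons, against 2.22, 6.35 and 10.12 FPKM in Control colons. WT colons had 31.01, 38, 42.49 and 20.41 FPKM, KO colons 21.07, 41.84, 16.55 and 21.49, and COM colons 13.24, 19.91, 17.45 and 19.49. WT 3 was highest and KO 2 next. Its treated mean was 4.09 times that of Control, and 5.94 times without Control 3, the highest Control library.

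Khdc1a, the KH domain gene, was at 11.04, 17.32 and 18.01 FPKM in DSS colons, against 0.64, 0.61 and a listed 0 in Control colons. It was at 25.86, 19.8, 16.4 and 26.85 FPKM in WT colons, 11.62, 3.48, 8.84 and 13.45 in KO colons, and 6.89, 14.79, 32.13 and 23.06 in COM colons. COM 3 was highest and KO 2 lowest of the treated libraries. No Control library reached 1 FPKM, and the treated mean was 39.9 times the Control mean (26.6 without Control 3). Adgrf1, the receptor gene, was at 9.41, 12.1 and 7.52 FPKM in DSS colons, against 1.5, 1.82 and 0.17 in Control colons. WT colons had 17.06, 17.57, 10.63 and 9.95 FPKM of Adgrf1, KO colons 9.79, 7.92, 5.26 and 9.53, and COM colons 5.49, 6.76, 10.26 and 11.45. The treated mean of Adgrf1 was 8.64 times that of Control, or 6.05 times without Control 3.

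Anxa8, the annexin, had 82.31, 152.91 and 55.13 FPKM in DSS colons, against 35.24, 42.69 and 3.84 FPKM in Control colons. It had 156.25, 154.84, 111.54 and 120.3 FPKM in WT colons, 100.18, 66.23, 86.33 and 99.03 in KO colons, and 64.19, 90.07, 145.99 and 125.06 in COM colons. WT 1 was highest, where Krt5 was at 0.03 FPKM. Anxa8 had a median of 146 FPKM in the 5 squamous-rich libraries and 94.5 FPKM in the other 10 treated ones. The part of squamous tissue in Anxa8 was not tested. The treated mean was 3.94 times that of Control, but 2.76 times without Control 3, which was low in Anxa8. On the log2(FPKM + 1) scale the DSS minus Control difference was 2.18, and 1.17 without Control 3. For WT it was 2.78 and 1.77, for KO 2.15 and 1.14, and for COM 2.38 and 1.36.

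Ly6m, the Ly6 family gene, had 133.79, 109.75 and 110.71 FPKM in DSS colons, against 31.57, 70.6 and 60.52 FPKM in Control colons. It had 136.01, 161, 209.4 and 117.56 FPKM in WT colons, 162.48, 285.36, 133.91 and 210.38 in KO colons, and 80.9, 85.01, 99.08 and 97.62 in COM colons. KO 2 was the highest library, and no COM library reached any DSS library. The log2 difference of COM minus DSS was -0.38 ± 0.27 (SE, limma adjusted p 0.622). How many of all genes lack overlap in that pair was not counted. The treated mean was 2.62 times that of Control. On the log2(FPKM + 1) scale the COM minus Control difference was 0.80, and 0.46 without Control 1.

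Myl7, the atrial myosin light chain, had 9.14, 6.36 and 8.82 FPKM in DSS colons, against 0.15, 0.31 and 3.84 FPKM in Control colons. It had 7.66, 7.73, 7.2 and 6.27 FPKM in WT colons, 8.21, 33.82, 5.94 and 7.24 in KO colons, and 4.6, 7.71, 8.38 and 10.13 in COM colons. KO 2 and Control 3 were the highest of their groups. The treated mean was 6.47 times that of Control, and 40.4 times without Control 3. Of 16 other heart muscle genes in the table, 11 stayed under 1 FPKM in every library. Myl2 was listed at 0 in all 18 libraries, Myh6 at up to 0.01 FPKM and Nppa at up to 0.18 FPKM. Tnnt2, cardiac troponin T, was at 2.56 to 18.98 FPKM, Pln at 1.75 to 9.98 FPKM, and Myl4, the other atrial light chain, at 0.58 to 2.99 FPKM. Tnni3 and Sln reached 1.29 and 1.63 FPKM. The part of heart muscle genes in the Myl7 values was not tested.

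By mean level, Control stood lowest for every gene. WT stood highest for Khdc1a, Adgrf1, Anxa8, Aldh1a3 and Dhrs9, and KO for Myl7 and Ly6m. Without KO 2 the KO mean of Myl7 was 7.13 ± 1.14 FPKM (SD, n = 3), the lowest of the treated groups, beside 7.21 in WT, 7.71 in COM and 8.11 in DSS. The KO mean of Ly6m without it was 169 ± 38.6 FPKM, still above 156 in WT. Libraries of groups next to each other in this order overlapped among the treated groups, except DSS and COM for Ly6m. Of groups further apart, KO lay wholly below WT for Khdc1a, Adgrf1 and Anxa8. COM lay wholly below WT and DSS for Dhrs9. For Ly6m, COM lay wholly below WT and KO, and KO wholly above DSS. The share of all genes without overlap in these pairs was not counted, so nothing is read from this.

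Differences among the 4 DSS-treated groups were tested with limma over 13263 genes, in 1 fit whose spread also came from Control. The choice of genes used the levels of these groups against Control. It may thus have favoured genes that were high in all of them and differed little between them. Of 42 differences (7 genes in 6 pairs of groups), 0 passed an adjusted p of 0.05, and 9 had an unadjusted p under it. Over all genes, 0% were called in WT against DSS, 0.166% in KO against DSS, 0.0151% in COM against DSS, 0.829% in KO against WT, 0.00754% in COM against WT and 0.0302% in COM against KO. With an unadjusted p under 0.05, these shares were 4.77%, 16.3%, 11%, 20.1%, 11.2% and 10.8%. A test of any difference among the 4 groups called 0.166% of all genes, and the members' adjusted p in it ran from 0.135 (Ly6m) to 0.836 (Myl7). WT, KO and COM pooled against DSS called 0.0151% of genes and none of the 7, whose adjusted p was at least 0.836.

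**Figure D2:**
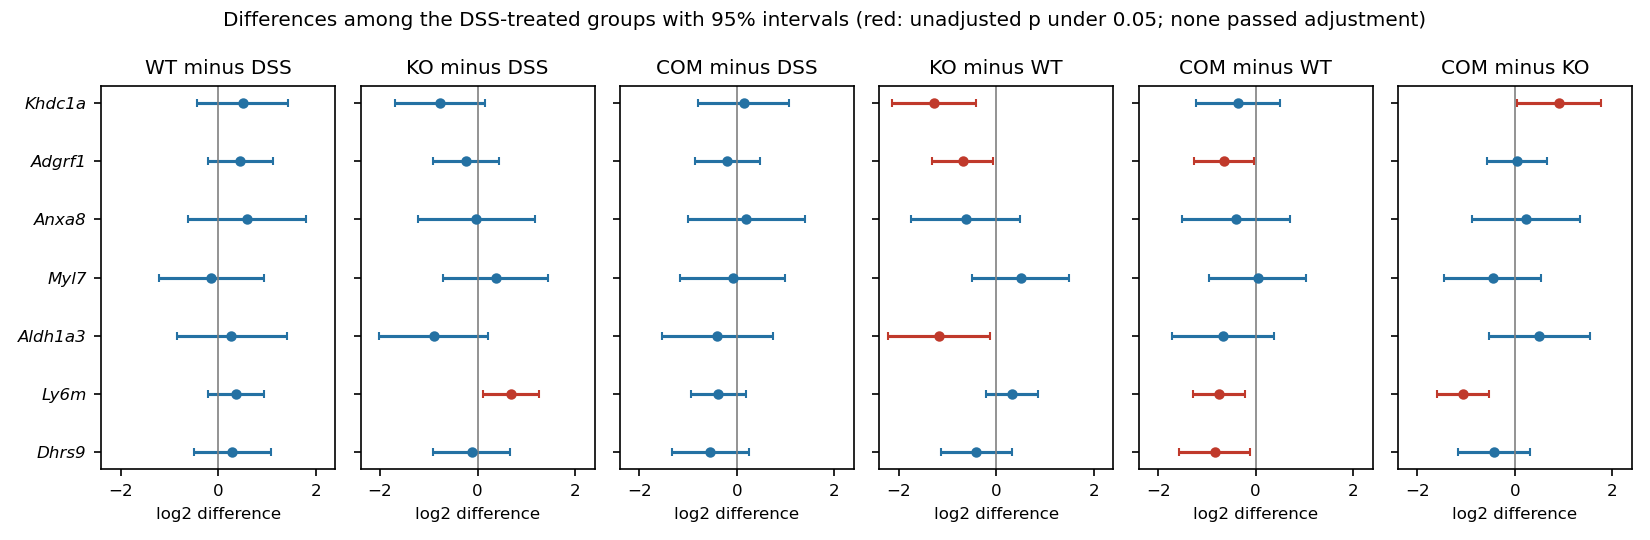
Log2 differences in log2(FPKM + 1) between pairs of DSS-treated groups for each gene, with unadjusted 95% intervals. Red points, 9 of 42, have an unadjusted p under 0.05, and 0 passed adjustment.

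Khdc1a in KO was lower than in WT by a log2 difference of -1.27 ± 0.40 (SE), with an unadjusted 95% interval of -2.13 to -0.41 and a limma adjusted p of 0.111. Means were 9.35 ± 4.35 FPKM in KO and 22.2 ± 4.98 FPKM in WT (SD, n = 4 each). Aldh1a3 differed by -1.18 ± 0.49 between KO and WT, interval -2.22 to -0.13 and adjusted p 0.198. Its means were 9.98 ± 5.34 FPKM in KO and 23.1 ± 8.38 FPKM in WT. Adgrf1 differed by -0.69 ± 0.29 between KO and WT (adjusted p 0.206) and by -0.65 ± 0.29 between COM and WT (adjusted p 0.432).

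Ly6m gave the smallest unadjusted p, 0.000597 in limma, for COM minus KO. The log2 difference was -1.07 ± 0.25 (SE), interval -1.59 to -0.54, and the adjusted p was 0.168. Means were 90.7 ± 9.06 FPKM in COM and 198 ± 66.2 FPKM in KO (SD, n = 4 each). Ly6m also differed by -0.75 ± 0.25 between COM and WT (adjusted p 0.329) and by 0.69 ± 0.27 between KO and DSS (adjusted p 0.226). Dhrs9 differed by -0.84 ± 0.34 between COM and WT (adjusted p 0.398), and Khdc1a by 0.91 ± 0.40 between COM and KO (adjusted p 0.438). The lowest bound of the 42 intervals was -2.22 and the highest was 1.80, so differences of more than 2-fold were within the intervals for several genes. A missed threshold does not show that the groups were alike.

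Across the 15 DSS-treated libraries, 7 of 21 pairs of the genes had an adjusted permutation p of r under 0.05. The share over all pairs of genes was not computed, so this count is not read as particular to these genes. The 7 pairs included 5 of the 6 pairs among Adgrf1, Anxa8, Aldh1a3 and Khdc1a. The sixth, Khdc1a with Adgrf1, had r = 0.59 and rho = 0.68 (adjusted permutation p 0.052 and 0.019), 0.57 without the 2 farthest libraries. Aldh1a3 and Anxa8 had r = 0.87 and rho = 0.86 on log2(FPKM + 1) (permutation p 2e-05 and 7e-05, adjusted over 21 pairs 0.00042 and 0.00049). Leaving out the 2 libraries farthest from the median of Anxa8 gave r = 0.92, and deviations from group means gave r = 0.93. In each pair these 2 libraries were set by 1 gene only, the earlier in the opening list of the 7 genes. With marker lists, the list set them. Extremes of the other gene could thus stay in. Adgrf1 went with Aldh1a3 (r = 0.82, rho = 0.86, adjusted permutation p 0.00105 and 0.00049) and with Anxa8 (r = 0.80, rho = 0.90, adjusted permutation p 0.00168 and 0.00021). For both, r without the 2 farthest libraries was 0.81 and 0.82. Khdc1a went with Aldh1a3 (r = 0.73, rho = 0.73, adjusted permutation p 0.00903 and 0.0119, 0.60 without 2) and with Anxa8 (r = 0.70, rho = 0.72, adjusted permutation p 0.0126 and 0.0119, 0.57 without 2). Ly6m and Dhrs9 had r = 0.69 and rho = 0.73 (adjusted permutation p 0.0163 and 0.0119), 0.50 without 2 and 0.82 in deviations from group means. The permutations did not keep groups apart, so differences between group means enter r and p. In deviations from group means, r was 0.80 for Adgrf1 with Aldh1a3 and 0.77 for Adgrf1 with Anxa8. For Khdc1a that r was 0.63 with Aldh1a3, 0.64 with Anxa8 and 0.48 with Adgrf1.

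**Figure D3:**
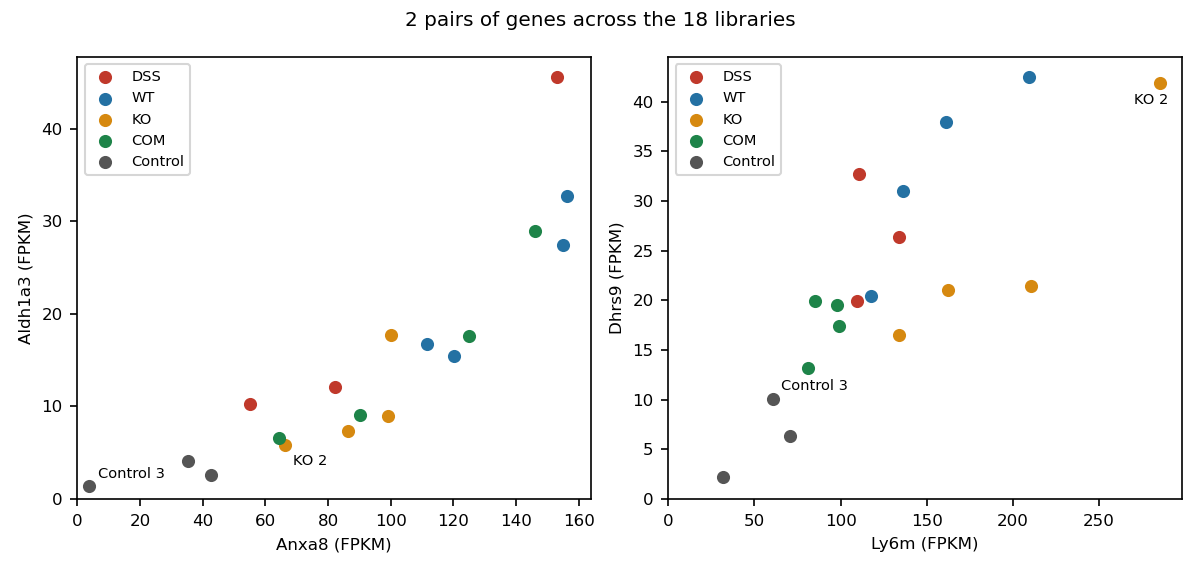
FPKM of Aldh1a3 against Anxa8 and of Dhrs9 against Ly6m in the 18 libraries, coloured by group. In treated libraries r is 0.87 and 0.69; KO 2 is low in the first pair and high in the second.

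Myl7 and Dhrs9 had r = 0.56 and rho = 0.38 (adjusted permutation p 0.0492 and 0.428), and r was 0.17 without the 2 farthest libraries, so the relation rests on those. In KO 2, Myl7 and Ly6m were the highest of all libraries and Dhrs9 the second highest, whereas Khdc1a and Aldh1a3 were the lowest of the treated libraries. In Control 3, the other low-Hox library, Myl7 and Dhrs9 were the highest of the Controls, and Khdc1a, Adgrf1, Anxa8 and Aldh1a3 the lowest. The part of colon region in these values was not tested.

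Of 42 relations between the genes and 6 marker lists over the same libraries, 10 had an adjusted permutation p of r under 0.05. The share over all genes was not computed, so this count is not read as particular to these genes. Aldh1a3 was inversely related to the colonocyte list (r = -0.85, rho = -0.73, adjusted permutation p 0.00294 and 0.0253, -0.74 without 2). Adgrf1 was inversely related to that list too (r = -0.70, rho = -0.67, adjusted permutation p 0.0248 and 0.0465, -0.75 without 2). So were Khdc1a (r = -0.66, rho = -0.55, adjusted permutation p 0.0375 and 0.0989, -0.59 without 2) and Anxa8 (r = -0.64, rho = -0.59, adjusted permutation p 0.0409 and 0.0774, -0.50 without 2). Aldh1a3 went with macrophage (r = 0.77, rho = 0.78, adjusted permutation p 0.0153 and 0.0241), fibroblast (r = 0.76, rho = 0.75, adjusted permutation p 0.0153 and 0.0253) and neutrophil lists (r = 0.75, rho = 0.79, adjusted permutation p 0.0168 and 0.0241). Without the 2 farthest libraries r was 0.72, 0.56 and 0.58 for these. Khdc1a went with the macrophage list (r = 0.74, rho = 0.64, adjusted permutation p 0.0168 and 0.0596, 0.62 without 2). Myl7 had r = -0.71 and rho = -0.46 with the distal Hox list (adjusted permutation p 0.0409 and 0.187), and -0.18 without the 2 farthest libraries. Anxa8 had r = 0.68 and rho = 0.52 with it (adjusted permutation p 0.0248 and 0.115), and 0.38 without them. In deviations from group means, r with the colonocyte list was -0.83 for Aldh1a3, -0.65 for Adgrf1, -0.45 for Khdc1a and -0.77 for Anxa8. For Aldh1a3 that r was 0.66, 0.74 and 0.68 with the macrophage, fibroblast and neutrophil lists. For Khdc1a with the macrophage list it was 0.62. With the distal Hox list it was -0.67 for Myl7 and 0.67 for Anxa8. The part of cell numbers in these relations was not tested.

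**Figure D4:**
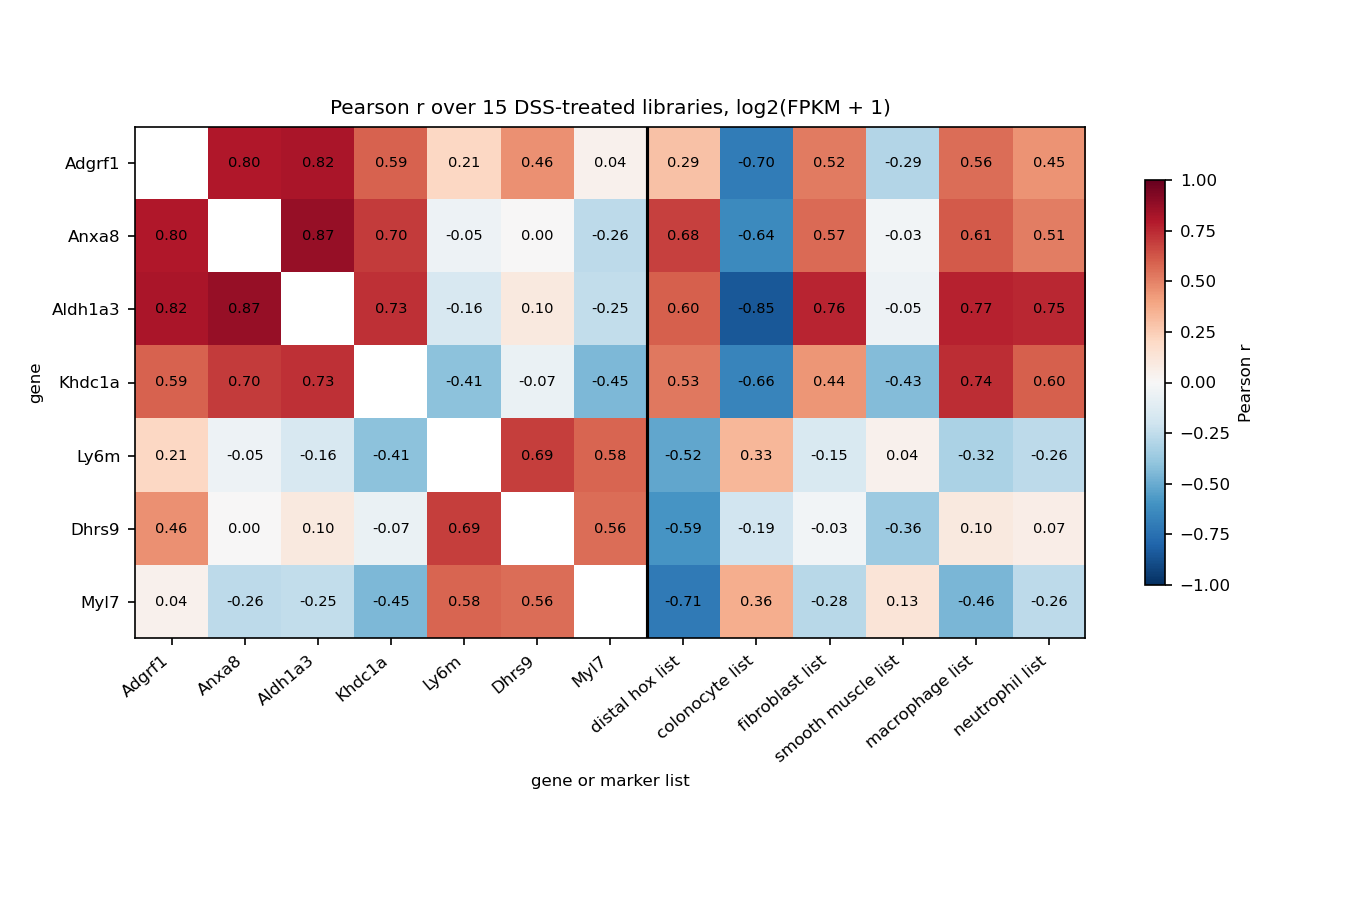
Pearson r over 15 DSS-treated libraries between the genes, and between the genes and 6 marker lists. Adgrf1, Anxa8, Aldh1a3 and Khdc1a form a block of r from 0.59 to 0.87.

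Genes whose levels over 18 libraries were most like each member included F3 for Anxa8 (r = 0.953), which encodes tissue factor. Clca3b was most like Adgrf1 (0.957), Ms4a4d most like Khdc1a (0.969) and Sulf2 most like Dhrs9 (0.928). Capg, an actin capping protein, was most like Myl7 (0.914) and Fer1l4 most like Ly6m (0.895). In deviations from group means the most alike genes included Robo1 for Anxa8 (0.969) and Ydjc for Dhrs9 (0.929). Others among the 3 most alike by level were Slc43a3 and Nme7 for Khdc1a, Spon1 for Adgrf1, Snx9 and Myof for Anxa8, Eya2 and Esm1 for Myl7, Spon1 and Lox for Aldh1a3, Dhrs9 and Il1rl1 for Ly6m, and Col6a4 and Cd177 for Dhrs9, with r from 0.862 to 0.953. The others by deviations were Runx2 and Spon1 for Aldh1a3, Gpc4 and Il1rn for Anxa8, and Mst1r and Eef1akmt3 for Dhrs9. For the rest these were Cfap410, Bag5 and Pcnx3 for Khdc1a, Dhx32, Ctnna1 and Raly for Adgrf1, Dsc2, Serinc2 and Ccl9 for Myl7, and Lpin3, Ydjc and Tmem208 for Ly6m, with r from 0.838 to 0.959. Members were chosen for a difference between groups that many of these genes share, so the r over levels is a description.

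Of 121 other genes of 8 lists of related function that were tested, 15 were called higher and 8 lower in DSS than in Control. In WT 22 were higher and 11 lower, in KO 9 and 3, and in COM 10 and 6. These 4 comparisons share the Control libraries. Over all genes, 11.6% were called higher and 5.31% lower in DSS, 14.7% and 8.35% in WT, 3.69% and 1.46% in KO, and 5.26% and 2.34% in COM. With only the compared groups in the fit, the list genes called fell to 1 higher and 0 lower in DSS, 12 and 5 in WT, and 0 in either direction in KO and COM.

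**Figure D5:**
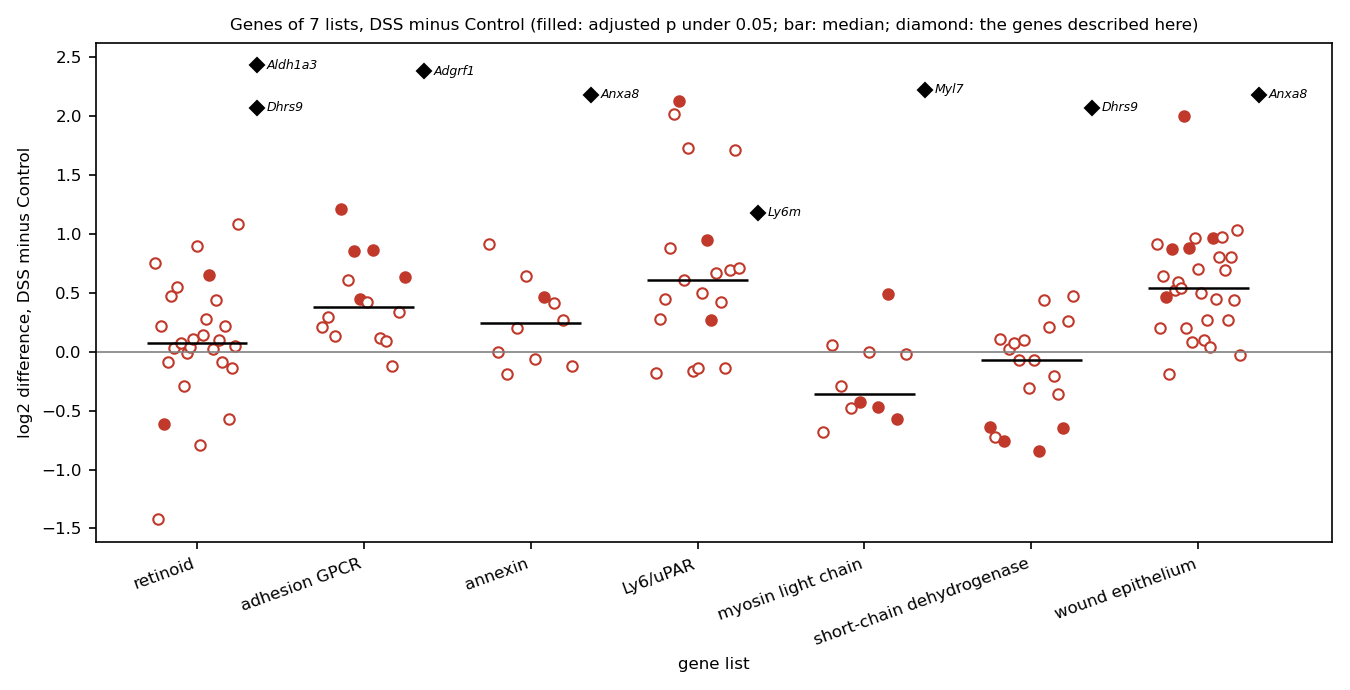
Log2 differences, DSS minus Control, of tested genes in 7 lists; filled points have an adjusted p under 0.05, bars are medians, and diamonds are the genes described here, which were chosen on this contrast. Every diamond except Ly6m lies above the other tested genes of its list.

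Among 27 retinoid genes other than Aldh1a3 and Dhrs9, 1 was called higher and 1 lower in DSS than in Control, with a median log2 difference of 0.07 beside 0.05 over all genes. Rdh10, which oxidises retinol, was higher by 0.65 ± 0.19 in DSS (limma adjusted p 0.0275) and by 0.81 ± 0.18 in WT (adjusted p 0.00517). Aldh1a7 was lower at a log2 difference of -0.61 ± 0.16 in DSS (adjusted p 0.0158) and of -0.73 ± 0.15 in WT (adjusted p 0.00327). Aldh1a1, a retinaldehyde dehydrogenase like Aldh1a3, did not pass, with -1.42 ± 0.81 in DSS (limma adjusted p 0.236). In KO and COM 0 of 27 passed in limma in either direction, and at an unadjusted p under 0.05 1 was higher and 3 lower in KO and 2 and 2 in COM. The most abundant genes of the list, Adh1, Aldh1a1 and Dhrs3, averaged 650, 39.1 and 31.8 FPKM, and Adh1 and Dhrs3 had differences of 0.75 ± 0.61 and 0.07 ± 0.18 in DSS. Among 18 short-chain dehydrogenase genes, 0 were called higher in any of the 4 groups in limma (0, 2, 1 and 0 at an unadjusted p under 0.05 in DSS, WT, KO and COM), and 4, 4, 2 and 3 were lower in DSS, WT, KO and COM. Hpgd, which inactivates prostaglandins, was lower in DSS at a log2 difference of -0.84 ± 0.17 (limma adjusted p 0.00497), Cbr1, a carbonyl reductase, at -0.64 ± 0.13 (adjusted p 0.00514), and Hsd17b2, which inactivates estradiol and testosterone, at -0.65 ± 0.12 (adjusted p 0.00304). Hsd11b2, which inactivates glucocorticoids, was at 0.21 ± 0.24 (adjusted p 0.587). The colonocyte list ran from 7.83 to 8.30 in DSS, 7.91 to 8.28 in WT, 8.41 to 8.84 in KO and 8.30 to 8.58 in COM, against 8.39 to 8.99 in Control, and its part in these values was not tested.

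Of 14 adhesion receptor genes, 5 were higher in DSS, 5 in WT, 3 in KO and 4 in COM, and none lower in limma (0, 1, 0 and 0 at an unadjusted p under 0.05), with a median log2 difference of 0.38 in DSS. The most abundant, Adgrg7, Adgre5 and Adgra3, had differences of 0.09 ± 0.10, 0.61 ± 0.25 and 0.29 ± 0.19 in DSS and did not pass. Adgrf5, the neighbour of Adgrf1 at a distance of 34453 bases, was higher in all 4 groups, by 0.85 ± 0.11 in DSS (limma adjusted p 0.000707). Adgre1, a macrophage surface antigen, was higher by 1.21 ± 0.24 in DSS (adjusted p 0.00498) and did not pass in KO (0.50 ± 0.23, adjusted p 0.217). Mean log2 levels of marker lists were 2.94 to 3.10 in DSS and 2.07 to 2.19 in Control for endothelium, and 3.47 to 3.86 in DSS and 1.98 to 3.03 in Control for macrophages. Their part in the receptor values was not tested. Near the same gene, Mep1a, a brush border protease, was lower at a log2 difference of -0.73 ± 0.13 in DSS (adjusted p 0.00312), and Pla2g7 higher by 1.01 ± 0.20 (adjusted p 0.00473).

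Of 10 other annexin genes, 1, 4, 1 and 2 were higher in DSS, WT, KO and COM, and 1 was lower in COM. Anxa5 was higher in all 4 groups, by 0.46 ± 0.07 in DSS (limma adjusted p 0.00113), and Anxa4, an abundant one, was at -0.06 ± 0.08 (adjusted p 0.65). Anxa1 and Anxa2 passed against Control in WT, by 1.19 ± 0.33 (adjusted p 0.0198) and 0.48 ± 0.14 (adjusted p 0.0241), and neither was called between any pair of treated groups. Anxa7 was higher by 0.47 ± 0.13 in WT (adjusted p 0.0204) and by 0.54 ± 0.13 in COM (adjusted p 0.0232), and Anxa13 was lower in COM at -0.71 ± 0.20 (adjusted p 0.0415). Among 29 wound epithelium genes other than Anxa8, 5, 8, 4 and 4 were higher in DSS, WT, KO and COM and 0 lower in limma, also at an unadjusted p under 0.05. F3 was higher by 0.88 ± 0.25 in DSS (limma adjusted p 0.0238). Ly6a, a marker of repairing epithelium, did not pass in DSS (0.45 ± 0.43, adjusted p 0.49), and neither did S100a6 (0.27 ± 0.35, adjusted p 0.619).

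Of 19 other Ly6 family genes, 3, 5, 2 and 1 were higher in DSS, WT, KO and COM. Ly6d, also a squamous epithelium gene, was higher by 2.13 ± 0.64 in DSS (limma adjusted p 0.0321) and Ly6k, a neighbour of Ly6m, by 0.95 ± 0.19 (adjusted p 0.00484). The abundant Lypd8, an antibacterial protein of the colon surface, was at -0.14 ± 0.21 (adjusted p 0.677), and Ly6e, a neighbour of Ly6m, at 0.61 ± 0.28 (adjusted p 0.143) in DSS and 0.77 ± 0.26 (adjusted p 0.0459) in WT. Lynx1, near Ly6m too, was higher by 0.27 ± 0.08 in DSS (adjusted p 0.0402) and by 0.33 ± 0.08 in KO (adjusted p 0.0261). Lynx1 was the only list gene called among the treated groups, higher in KO than in WT by 0.33 ± 0.07 (limma adjusted p 0.048). Of 10 genes of myosin light chains and their regulators, 1 was higher and 3 lower in DSS. The higher one was Mylip, a ubiquitin ligase, by 0.49 ± 0.15 (limma adjusted p 0.041). Of the 8 that encode light chains, 2 were lower. Myl9, the smooth muscle regulatory light chain, was lower at a log2 difference of -0.47 ± 0.11 in DSS (limma adjusted p 0.0114), and Mylk, its kinase, at -0.57 ± 0.14 (adjusted p 0.0116). Myl6 was lower at -0.43 ± 0.09 (adjusted p 0.00497), and Myl12b, at -0.29 ± 0.11, did not pass (adjusted p 0.0711). The smooth muscle list ran from 6.20 to 6.57 in DSS and from 6.63 to 6.86 in Control, and its part was not tested. Of the Khdc1 list no other Khdc1 gene passed the filter, and Tle6, a co-repressor of the oocyte complex that was listed with them, was at 0.15 ± 0.14 in DSS (limma adjusted p 0.469). Next to Aldh1a3, Lrrk1, 2551 bases away, was higher by 0.58 ± 0.09 in DSS (adjusted p 0.00191), and near Anxa8, Syt15 was higher by 0.57 ± 0.11 (adjusted p 0.00484). Other neighbours called against Control in at least 1 group were Gsta3 and Tram2 of Khdc1a, Npy4r of Anxa8, Aebp1 of Myl7, Chsy1 of Aldh1a3 and Nostrin of Dhrs9, with log2 differences from -0.48 (Npy4r, WT) to 1.03 (Aebp1, DSS). Neighbours were the 3 nearest tested genes on each side of a member, and most of them were called in no group. The share of all genes called in at least 1 group was not computed.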

How the data were processed

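Per the labels' protocols, whole colons were rinsed, frozen and their RNA sequenced by DNBSEQ, here 18 libraries. The authors deposited FPKM values for 18349 genes, scaled to library and transcript length. The submitters' processing notes name the build mm10, while aligner, annotation and FPKM program were not given in the sources used here. Of the gene identifiers, 18230 matched RefSeq symbols of GRCm38.p6 and 119 did not. Gene models were read from GENCODE M21.

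Groups were taken from titles. Values were transformed to log2(FPKM + 1), which understates changes of low genes. The 13263 genes that reached 1 FPKM in 3 or more libraries entered 1 five-group model in limma 3.58.1 (R 4.3.3) with a mean-variance trend, checked on simulated data. Tests were two-sided, with Benjamini-Hochberg adjustment within a contrast. Correlations used 100000 permutations in scipy 1.17.1, across all treated libraries without regard to group. Members and lists were chosen with earlier results of these data known. By rule the text named the 7 members, the 3 most abundant genes of each list, list genes called among the treated groups, the 3 most alike genes by each measure and called neighbours; other list genes were named after their values were seen. A gene that the rule takes is not reported here. No pair of libraries shared over 0.544% of values of at least 1 FPKM, so none was taken for a copy. The alternatives were a pseudocount of 0.1, no filter, a filter of 5 FPKM, quantile and TPM scaling, only the groups compared, the replicate block and each library left out. Libraries rich in squamous, acinar or low in Hox genes were also left out, chosen after seeing the data.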

Additional observations from a re-analysis of the deposited data

Results flagged for a closer look

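Myl7 stood at 33.82 FPKM in KO 2, far above the other 3 KO libraries (8.21, 5.94 and 7.24 FPKM), with a gap of 0.919 of the group's range. It was the only such value in 21 groups of 4 libraries looked at, and chance flags about 1 in 20. KO 2 was also low in distal Hox genes, with Hoxb13 at 79.33 FPKM, and the part of this in the Myl7 value was not tested.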

How the results depend on the processing

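Under 28 alternatives, 0 of the 42 differences among treated groups was called; the smallest adjusted p was 0.0547, with limma and only the groups compared (Anxa8, KO against WT). All 7 genes kept every treated library above every Control library under quantile and TPM scaling. The other alternatives cannot undo such a gap, and the genes were chosen on this contrast, so nothing is read from it. Direction turned in 39 of 1176 recomputed pair differences, in 16 of the 42, none called in any fit; the cause was not tested. Without the acinar-rich libraries, which leaves 1 DSS library assumed to vary like the others, these became -0.13 for Adgrf1 COM minus KO, -1.02 for Aldh1a3 WT minus DSS, -0.59 and -0.19 for Anxa8 COM and WT minus DSS, 0.4 for Dhrs9 KO minus DSS, -0.05 for Khdc1a COM minus DSS, and 0.2 and 0.15 for Myl7 COM and WT minus DSS. Pooled gavage minus DSS became -0.25 for Adgrf1, -0.53 for Anxa8 and 0.29 for Dhrs9. Without the squamous-rich libraries they became -0.23 for Adgrf1 COM minus KO, 0.09 and 0.36 for Adgrf1 and Anxa8 KO minus DSS, -0.07 for Khdc1a COM minus DSS and -0.05 for Myl7 COM minus WT, and pooled 0.25 for Aldh1a3 and -0.02 for Myl7. Without the low-Hox libraries they became 0.1 for Anxa8 KO minus DSS, -0.16, -0.02 and 0.06 for Myl7 KO minus DSS, KO minus WT and COM minus KO, and pooled 0.08 for Khdc1a and -0.13 for Myl7.

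Replicate numbers did not pair the samples: deviations of same-numbered libraries correlated from -0.47 to 0.39 over 33 pairs, and 3 of 18 libraries were closest to their own number. With the replicate block, Adgrf1 pooled became -0.03 and Khdc1a COM minus DSS -0.01, and list genes called were 4 higher in KO and 1 lower in COM.

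With each library left out in turn, the ranges that crossed 0 were -0.13 to 0.2 (Adgrf1 COM minus KO), -0.78 to 0.24 and -0.1 to 0.92 (Aldh1a3 COM and WT minus DSS), -0.14 to 0.58 and -0.37 to 0.36 (Anxa8 COM and KO minus DSS), -0.38 to 0.05 (Dhrs9 KO minus DSS), -0.16 to 0.53 and -0.66 to 0.03 (Khdc1a COM minus DSS and minus WT). For Myl7 they were -0.24 to 0.1 (COM minus DSS), -0.71 to 0.06 (COM minus KO), -0.09 to 0.24 (COM minus WT), -0.16 to 0.62 (KO minus DSS) and -0.02 to 0.75 (KO minus WT). Pooled against DSS they were -0.15 to 0.16 for Adgrf1, -0.72 to 0.3 for Aldh1a3, -0.09 to 0.64 for Anxa8, -0.31 to 0.04 for Dhrs9, -0.25 to 0.09 for Khdc1a and -0.13 to 0.13 for Myl7.

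Counts of list genes called against Control moved more. Leaving out 1 library gave 6 (without DSS 2) to 25 (without Control 1) higher and 5 to 12 lower in DSS, 14 to 33 higher in WT, 3 to 11 higher and 2 to 7 lower in KO, and 4 to 17 higher and 1 to 10 lower in COM. With only the groups compared they were 1 and 0 in DSS, 12 and 5 in WT, and 0 in KO and COM. No filter gave 5 higher in KO and 3 lower in COM, quantile scaling 3 higher in KO, and TPM 3 lower in COM. Without the squamous-rich libraries counts were 5 and 2 in DSS, 7 and 7 in WT, 2 and 1 in KO, and 1 and 0 in COM. Without the acinar-rich ones they were 7 and 1 in DSS, 5 higher in KO and 2 lower in COM, and without the low-Hox ones 13 lower in DSS and 5 lower in KO.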
